A study of Mus musculus with 14 samples.

Results

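The regions described here are RNF2 peaks that appeared at the ends of protein-coding genes in mouse embryonic stem cells without BAP1 and that were in no peak list of wild-type cells. They were chosen by a rule: a peak of the second BAP1 knockout RNF2 library, on chromosomes 1 to 19, X and Y, that overlaps no peak of either wild-type RNF2 library and reaches into a window of 1000 bp on each side of either end of a protein-coding gene in RefSeq. The rule kept 5501 of the 39872 peaks of that list, which is 13.8% of all its peaks and 33.5% of its 16400 gene-end peaks. They touch 4720 of 21779 protein-coding genes (21.7%). Of the other peaks of the list, 14189 were new but lay away from gene ends, 10899 lay at gene ends and overlapped a wild-type peak, and 9283 overlapped a wild-type peak away from gene ends.

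The study mapped 2 proteins by chromatin immunoprecipitation and sequencing (ChIP-seq) in mouse embryonic stem cells of C57BL/6 background, in 7 ChIP libraries and as many input libraries. RNF2 was mapped in BAP1 knockout cells (2 libraries), in RNF2 knockout cells as an antibody control (1 library) and in wild-type cells (2 libraries). BAP1 was mapped in Bap1 C91A/- cells, whose remaining BAP1 lacks the catalytic cysteine (1 library, with an added protein crosslinker), and in BAP1 knockout cells as an antibody control (1 library). All cells, wild type included, had been kept for 4 days in 100 nM 4-hydroxytamoxifen, a ligand that switches on tamoxifen-dependent recombinases, and 10 µM emricasan, an inhibitor of caspases. The labels name neither the recombinase nor the clone that each genotype came from.

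RNF2, also called RING1B, is the catalytic subunit of Polycomb repressive complex 1, which attaches a single ubiquitin to histone H2A and keeps developmental genes silent in stem cells. BAP1 is the deubiquitinase that takes this ubiquitin off again, as part of the Polycomb repressive deubiquitinase complex. In embryonic stem cells RNF2 is known mainly from CpG islands, stretches rich in the dinucleotide CG that lie at many gene starts.

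The promoters below belong to genes with a new peak over all or part of the printed window. In the first 4 the peak covered the whole window. In the last 5 it covered only part, at Mrpl40 only the first bases printed, so marked matches can lie outside the peak. Each is the 300 bases from 250 before to 50 after an annotated gene start, from RefSeq (GRCm38.p6), read 5′ to 3′ along the gene. Capitals mark matches, on either strand, to any of 11 short motifs: the Sp1 box (GGGCGG), the CCAAT box (CCAAT), the ETS core (CGGAAG), the NRF1 motif (GCGCNTGCG), the YY1 motif (AAGATGG), a forkhead core (GTAAACA), a ZNF143 motif (ACTACAA), the E-box (CACGTG), the cyclic AMP response element (TGACGTCA), the TATA box (TATAAA) and the metal response element core (TGCNCNC). Neighbouring matches can overlap and then form 1 capital run. The first 4 belong to genes whose new peak was also in the first BAP1 knockout list, and the last 5 to genes whose new peak overlapped a BAP1 peak of C91A cells; the 4 mitochondrial genes among these were added after the values had been seen.
Mt1, chr8:94178839-94179138, plus strand: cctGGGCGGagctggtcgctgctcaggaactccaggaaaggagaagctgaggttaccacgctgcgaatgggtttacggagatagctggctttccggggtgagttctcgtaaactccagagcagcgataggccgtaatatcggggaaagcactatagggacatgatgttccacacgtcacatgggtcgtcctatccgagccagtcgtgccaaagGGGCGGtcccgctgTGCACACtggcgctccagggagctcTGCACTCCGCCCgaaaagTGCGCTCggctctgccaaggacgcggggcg
Shkbp1, chr7:27355959-27356258, minus strand: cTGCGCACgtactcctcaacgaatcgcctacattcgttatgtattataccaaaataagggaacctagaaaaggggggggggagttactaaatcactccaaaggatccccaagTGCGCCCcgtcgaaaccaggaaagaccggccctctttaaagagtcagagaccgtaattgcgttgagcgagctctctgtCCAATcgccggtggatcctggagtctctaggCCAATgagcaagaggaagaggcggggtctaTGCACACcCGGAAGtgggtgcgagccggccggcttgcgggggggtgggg
Ubr1, chr2:120970666-120970965, minus strand: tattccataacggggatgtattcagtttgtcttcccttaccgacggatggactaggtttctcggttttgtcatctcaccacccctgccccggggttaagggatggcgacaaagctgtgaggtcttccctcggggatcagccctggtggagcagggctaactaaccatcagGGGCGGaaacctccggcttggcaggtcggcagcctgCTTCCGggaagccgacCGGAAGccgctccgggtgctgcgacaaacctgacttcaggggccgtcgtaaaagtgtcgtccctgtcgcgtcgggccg
Nupr1l, chr5:129908290-129908589, plus strand: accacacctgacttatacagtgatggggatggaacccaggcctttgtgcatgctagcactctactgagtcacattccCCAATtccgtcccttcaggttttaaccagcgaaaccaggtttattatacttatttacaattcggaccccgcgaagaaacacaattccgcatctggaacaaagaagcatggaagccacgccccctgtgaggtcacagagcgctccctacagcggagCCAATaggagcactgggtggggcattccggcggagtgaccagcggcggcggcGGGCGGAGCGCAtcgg
Snx29, chr16:11322654-11322953, plus strand: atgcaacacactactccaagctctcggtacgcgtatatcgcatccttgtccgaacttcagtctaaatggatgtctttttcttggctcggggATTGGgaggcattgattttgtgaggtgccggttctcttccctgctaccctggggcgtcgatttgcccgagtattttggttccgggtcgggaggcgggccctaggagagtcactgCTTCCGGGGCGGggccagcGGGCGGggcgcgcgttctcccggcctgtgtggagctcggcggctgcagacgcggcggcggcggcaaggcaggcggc
Mrps17, chr5:129715247-129715546, plus strand: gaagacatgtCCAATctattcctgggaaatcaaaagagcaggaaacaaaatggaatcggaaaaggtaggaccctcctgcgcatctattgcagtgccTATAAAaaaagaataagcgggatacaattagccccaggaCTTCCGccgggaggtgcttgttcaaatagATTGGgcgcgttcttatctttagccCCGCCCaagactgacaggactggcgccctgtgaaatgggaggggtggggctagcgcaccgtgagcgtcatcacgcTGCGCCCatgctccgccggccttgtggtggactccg
Mrpl40, chr16:18876588-18876887, minus strand: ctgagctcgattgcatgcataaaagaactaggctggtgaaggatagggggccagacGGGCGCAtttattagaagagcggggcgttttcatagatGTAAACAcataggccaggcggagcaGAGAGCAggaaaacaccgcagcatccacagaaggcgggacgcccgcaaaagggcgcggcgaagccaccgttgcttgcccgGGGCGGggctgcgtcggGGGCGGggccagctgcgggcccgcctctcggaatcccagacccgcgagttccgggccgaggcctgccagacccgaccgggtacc
Mrps18a, chr17:46110754-46111053, plus strand: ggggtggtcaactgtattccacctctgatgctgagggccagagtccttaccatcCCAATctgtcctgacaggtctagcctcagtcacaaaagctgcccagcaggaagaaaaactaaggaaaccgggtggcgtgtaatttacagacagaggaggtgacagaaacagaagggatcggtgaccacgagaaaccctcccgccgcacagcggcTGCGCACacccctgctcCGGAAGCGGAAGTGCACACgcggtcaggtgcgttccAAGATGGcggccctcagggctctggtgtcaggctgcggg
Ndufaf5, chr2:140170396-140170695, plus strand: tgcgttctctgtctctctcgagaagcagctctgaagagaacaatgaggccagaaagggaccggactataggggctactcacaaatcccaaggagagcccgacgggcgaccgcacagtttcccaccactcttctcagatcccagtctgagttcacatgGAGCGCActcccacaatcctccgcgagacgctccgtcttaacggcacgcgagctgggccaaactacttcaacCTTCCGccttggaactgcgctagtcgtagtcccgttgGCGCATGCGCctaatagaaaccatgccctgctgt

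Mt1 encodes a metallothionein, a small zinc-binding protein, and its promoter held 3 metal response element cores and 3 Sp1 boxes. The Ubr1 promoter held 2 ETS cores and that of Mrps18a, a gene of the mitochondrial ribosome, held 2 as well, next to each other, with a YY1 match. The Ndufaf5 promoter held 1 ETS core and 2 overlapping NRF1 matches, 1 on each strand. A match says that the letters are there, not that a factor binds. The ratio of observed to expected CG was 0.878 at Mt1, 0.844 at Ubr1, 0.881 at Ndufaf5 and 0.575 at Mrps18a. The share of promoters that hold each motif, under new peaks and in all, is given further down.

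Most new peaks were weak and narrow. The authors' fold enrichment, the read pileup at the summit over the local background, had a median of 2.97 among the new gene-end peaks (range 1.85 to 16.9). It was 2.92 among new peaks away from gene ends and 6.83 among gene-end peaks shared with wild type. The median width was 187 bp, against 172 bp and 1307 bp in those same sets. Of the 5501 peaks, 2965 were under 200 bp wide, 252 had the smallest width the caller allowed (100 bp), and 219 spanned at least 1000 bp. With the second wild-type library left out, the median width was 505 bp and the median fold enrichment 3.74; with the second BAP1 knockout library left out, they were 452 bp and 3.07. The median peak ranked 26205th of 39872 by fold enrichment. Absence from the wild-type lists was part of the rule, so these values describe which peaks it took and support nothing.

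**Figure D1:**
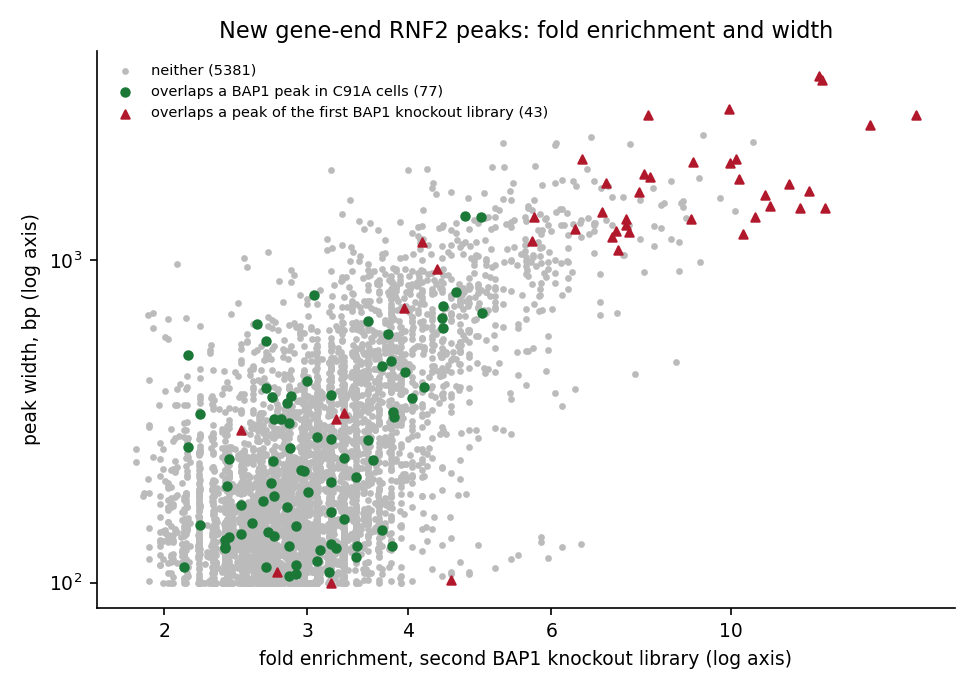
Fold enrichment in the second BAP1 knockout library (x axis, log scale) and width in bp (y axis, log scale) of the 5501 new gene-end peaks, 1 point per peak. The 43 peaks that overlap a peak of the first BAP1 knockout library (triangles) are mostly strong and wide. The 77 that overlap a BAP1 peak of C91A cells (green) have a median fold enrichment of 2.97, as do all 5501, and at most 4.93.

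The count depended on the deep libraries. The second libraries held 139 M tags in BAP1 knockout and 149 M in wild type, and the first ones 54.1 M and 58.4 M. The first BAP1 knockout list held 7946 peaks and the wild-type lists 4038 (first) and 28770 (second). With the second wild-type library left out, 13981 peaks met the rule; with the second BAP1 knockout library left out, and its members drawn from the first by the same rule, 70 did. By gene, the counts were 10568 without the second wild-type and 79 without the second BAP1 knockout library. The first wild-type library changed little (5503 without it). The RNF2 knockout control, at 119 M tags, listed 0 peaks, and the BAP1 knockout control of the BAP1 antibody, at 32.5 M tags, listed 144, none of them over a new gene-end peak. No count of peaks was tested: each library gives a peak once, and with 2 libraries in each genotype there is no replicate of a peak beyond the first BAP1 knockout list.

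Many of the new peaks lay beside RNF2 that was already there in wild type. A wild-type peak was within 250 bp of 1164 new peaks (21.2%, Wilson 95% interval 20.1 to 22.3; such intervals cover counting error only) and within 1000 bp of 2570 (46.7%, 45.4 to 48.0). At 2372 of these 2570 (92.3%, 91.2 to 93.3), a wild-type peak within that distance overlapped a peak of the second BAP1 knockout library. Over all 2570, the median gap to the nearest peak of the second BAP1 knockout library that was shared with wild type was 139 bp. A second set was far away: 1994 new peaks (36.2%, 35.0 to 37.5) had no wild-type peak within 10000 bp. Between these, 307 lay at 1001 to 2500 bp and 630 at 2501 to 10000 bp. By gene, 2348 of the 4720 held a wild-type peak at the same end, 349 only at the other end and 2023 at neither, the last being 18.3% of the 11035 genes that had no wild-type peak. With the second wild-type library left out, 3.92% of new peaks lay within 2500 bp of a wild-type peak, against 52.3% with both wild-type libraries.

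At the edges of the rule, peaks on each side looked alike. Just inside the window of 1000 bp lay peaks near Chpf (fold enrichment 3.94) and Hpcal4 (2.72), and just outside, at 1001 bp, peaks near Saysd1 (3.46) and Sfn (2.76). Peaks near Bcar1 (3.92) and Cd151 (3.60) were 1 bp clear of a wild-type peak, and those near Cblb (3.45) and Samd1 (3.33) touched one by 1 bp. Within 500 bp of a gene end the median fold enrichment was 3.02 over 3862 new peaks, and it was 2.86 over 1639 new peaks at 501 to 1000 bp.

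The first BAP1 knockout library, which the rule did not use, listed few of the new peaks. A peak of its list overlapped 43 of the 5501 (0.782%, 0.581 to 1.05). The share was 0.571% (0.460 to 0.709) of new peaks away from gene ends, 45.0% of gene-end peaks shared with wild type and 18% of all peaks of the second list. With the second wild-type library left out of the rule, it was 18.6% (17.9 to 19.2) of 13981 peaks. For 40 of the 43, the peaks of the first list also overlapped no wild-type peak. The exceptions were Gm38418, 1700001O22Rik and Chordc1, where a wide peak of the first list ran over both a new peak and a wild-type one.

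Whether a new peak came back followed its strength in the second library. At a fold enrichment of 7 and over, 29 of 64 new gene-end peaks were in the first list (45.3%, 33.7 to 57.4), close to the 41.7% (33.1 to 50.9) of new peaks away from gene ends and below the 84.4% (83.4 to 85.4) of shared gene-end peaks of that strength. At 5 to 7 it was 5 of 175 (2.86%, 1.23 to 6.51), against 18.2% of shared gene-end peaks. Below 3, where 2870 of the new peaks lay, 2 were in the first list. Among the 20 strongest 16 were (80.0%, 58.4 to 91.9). The first library held fewer tags and was called with a longer read extension, so what part of the other peaks it could have listed was not tested.

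**Figure D2:**
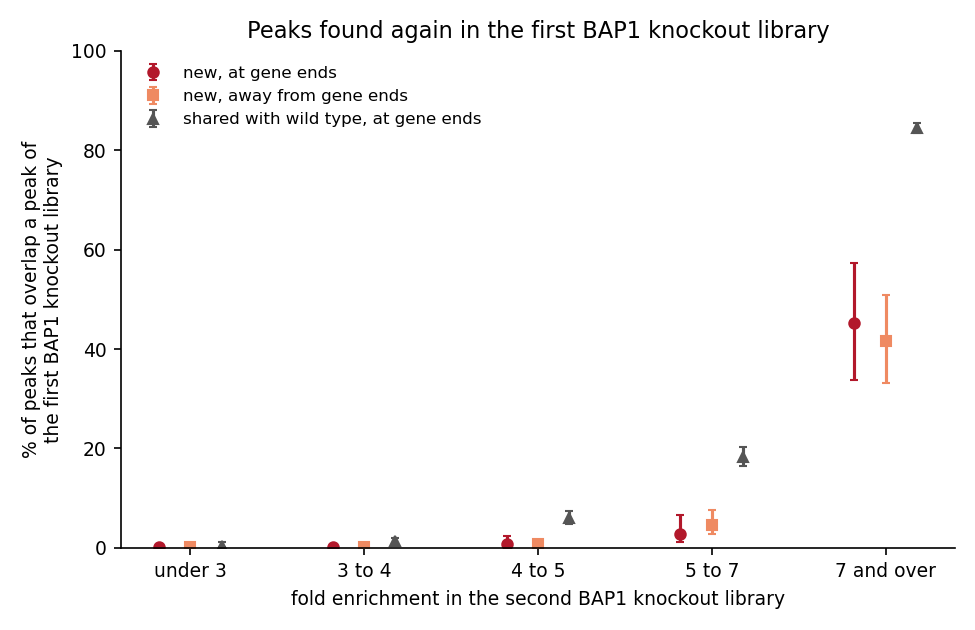
Share of peaks of the second BAP1 knockout library that overlap a peak of the first (y axis, %), by fold enrichment in the second library (x axis), for new peaks at gene ends, new peaks away from gene ends and gene-end peaks shared with wild type; bars are 95% Wilson intervals. At a fold enrichment of 7 and over the shares are 45.3%, 41.7% and 84.4%, and below 4 none is above 1.32%.

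The strongest new peak lay over Mt1. It spanned chr8:94178142-94180964 (2823 bp) and had a fold enrichment of 16.9 in the second and 8.49 in the first BAP1 knockout library. Neither wild-type library had a peak on it, the nearest lying 2283 bp away. Among the 4 metallothionein genes of the table, Mt3 also held a new peak, a weak one of 2.84 at its end, 373 bp from a wild-type peak.

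Other strong new peaks lay at genes of varied function, and 11 of the 12 strongest were in both BAP1 knockout lists. Tle5, a member of the Groucho family of corepressors, had a fold enrichment of 14.9 in the second and 3.42 in the first BAP1 knockout library, with the nearest wild-type peak at 9473 bp. BC005537 had 13.1 and 3.24, with a wild-type peak at 405 bp. The peak at the start of Shkbp1 and the end of its neighbour Sptbn4, both on the minus strand, was 3629 bp wide and had 12.9 and 3.70. Reep6, of a family that shapes the endoplasmic reticulum, held the widest new peak (3738 bp), with 12.8 and 3.38.

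Next came the peak of Nupr1l and Zbed5, with 12.5 in the second and 4.56 in the first BAP1 knockout library. Emc9, of the endoplasmic reticulum membrane complex, had 12.2 and 2.67, and Bicra, a subunit of a BAF chromatin remodelling complex, had 11.8 and 2.93. Hibch, an enzyme of valine breakdown, had 11.2 and 3.66, and its nearest wild-type peak was 26782 bp off. Smurf1, a ubiquitin ligase of the BMP pathway, had 11.0 and 4.52, with a wild-type peak only 181 bp away. Spata24, at 10.7, was the 1 of these 12 peaks with no peak in the first list.

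Further peaks in both BAP1 knockout lists lay at genes of varied roles. Ubr1, which marks proteins with N-degrons for breakdown, had 7.00 in the second and 5.52 in the first library. Srrm2, a scaffold of nuclear speckles, had 7.81 and 4.56. Sall4, a zinc finger factor of pluripotent cells, had 7.89 and 3.43 in a peak 2829 bp wide, 260 bp from a wild-type peak. Chmp7, which seals the nuclear envelope, had 9.98 and 3.65 and lay 64 bp from a wild-type peak. Sall4 and Chmp7 belong to the set beside wild-type RNF2.

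By gene, 46 held a new peak that was also in the first list (0.211% of all), and 28 of them had no wild-type peak at either end. In the first list those 43 overlapping peaks had a fold enrichment of 1.87 to 20.0, median 3.16, against 4.82 over the whole list. The value of 20.0 belongs to 1700001O22Rik, whose peak in the first list also covers a wild-type peak.

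BAP1 itself lay under few new peaks, and among both new and shared peaks it was more frequent at gene ends than away from them. A BAP1 peak of C91A cells overlapped 77 of the 5501 (1.40%, 1.12 to 1.75) and 11 of the 14189 new peaks away from gene ends (0.0775%, 0.0433 to 0.139). It overlapped 594 of the 10899 shared gene-end peaks (5.45%, 5.04 to 5.89) and 88 of the 9283 shared peaks away from gene ends (0.948%, 0.770 to 1.17). Below a fold enrichment of 3, new and shared gene-end peaks had 1.39% and 1.48%. At 3 to 4 they had 1.39% and 3.18%, and at 4 to 5 they had 2.37% and 3.62%. At 5 to 7 they had 0% and 3.47%, and at 7 and over 0% and 7.97%. Over all peaks of the list the share was 1.93%, so the new gene-end peaks lay below that background. It was 1.94% (1.50 to 2.51) for new peaks over 1000 bp from a wild-type peak and 0.778% (0.504 to 1.2) for those closer. With the second wild-type library left out the share was 2.03%, and among the 70 peaks taken from the first BAP1 knockout library it was 4.29% (1.47 to 11.9). With BAP1 peaks of −log10 q of at least 5, a setting chosen after seeing the data, the share of the 5501 was 0.454% (0.308 to 0.670), so most of the 77 rest on weaker BAP1 peaks. The BAP1 knockout control had none. It held 32.5 M tags and 144 peaks, against 415 M and 2395 in the C91A library. What it could have listed at equal depth was not tested. No new peak had both a BAP1 peak and a peak of the first BAP1 knockout list: 0 of 77, which allows a share of up to 3.90% at a limit of 3 counts (Wilson upper bound 4.75%). Over all 5501 new gene-end peaks the share in the first list was 0.782%, below that limit. The 0 of 77 therefore cannot set these peaks apart from the rest.

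These 77 peaks were as weak in RNF2 as the new gene-end peaks in all, and they sat closer to gene starts. Their median fold enrichment was 2.97, equal to that of all 5501, and the highest was 4.93. All 64 with a gene of known strand touched a gene start, and 17 of the 64 (26.6%, 17.3 to 38.5) touched the starts of at least 2 genes, against 9.79% (8.94 to 10.7) of the new gene-end peaks and 8.55% (7.97 to 9.17) of the shared ones. The summit was within 250 bp of the start in 57.1% (45.5 to 68.1) of those with a start in reach, against 32.4% (30.9 to 33.9) of all new gene-end peaks.

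The 8 strongest BAP1 peaks among them lay at genes of several kinds. Slu7, a splicing factor, had a BAP1 fold enrichment of 5.75 in C91A cells and an RNF2 fold enrichment of 3.33 in the second BAP1 knockout library. Auh, an enzyme of leucine breakdown that also binds RNA, had 5.75 for BAP1 and 2.73 for RNF2. Ccdc28a had 5.60 and 3.56. In all 3 the nearest wild-type RNF2 peak was over 10000 bp away (40262, 47793 and 20936 bp).

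H1f10, a linker histone gene, had 5.22 for BAP1 and 2.21 for RNF2, and it was an exception in lying 28 bp from a wild-type peak. Snx29, a sorting nexin, had 4.91 and 2.60, and Syf2, another splicing factor, had 4.91 and 3.62. Tmem101 had 4.68 and 4.93. The start shared by Mrrf, which recycles mitochondrial ribosomes, and Rbm18 had 4.52 and 2.38. The first BAP1 knockout library listed none of these, and only 0.782% of all new gene-end peaks.

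Mitochondrial ribosome genes recurred under BAP1. New peaks with BAP1 lay at 8 of the 78 mitochondrial ribosomal protein genes (Mrps28, Mrps17, Mrps18a, Mrpl43, Mrps31, Mrps15, Mrpl40 and Mrpl21), whereas 0.464% of all genes had one. Mrps28 had a BAP1 fold enrichment of 4.18 and an RNF2 fold enrichment of 2.39, Mrps17 had 4.06 and 2.41, and Mrps15 had 3.37 and 4.58. The complex I assembly factor gene Ndufaf5, which shares its peak with Esf1, had 3.68 and 4.41. This group was noticed after the values had been seen, and it was not tested.

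Most new gene-end peaks lay at starts of genes rather than at their far ends. Strand was known for a gene of 4331 new peaks, and 88.7% (87.7 to 89.6) touched a start, against 94.2% (93.6 to 94.7) of 8335 gene-end peaks shared with wild type. Far ends only were touched by 11.3% (10.4 to 12.3), against 5.83% (5.35 to 6.35) of shared peaks. The share at far ends was 41.7% (35.6 to 48.2) among new peaks 1001 to 2500 bp from a wild-type peak and 8.10% (6.86 to 9.53) among those over 10000 bp away.

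The place of the summit split the new peaks by their distance from wild-type RNF2. Over 1000 bp from a wild-type peak, the median summit was 152 bp into the gene, 66.2% were downstream of the start and 42.2% within 250 bp of it. Closer to a wild-type peak, the median summit was 138 bp before the start, 45.3% were downstream and 21.5% within 250 bp. Gene-end peaks shared with wild type had a median of 268 bp into the gene, and 78.1% were downstream. The new peaks beside wild-type RNF2 had summits on both sides of the stretch where shared peaks had theirs. The rule itself keeps them off the wild-type peaks.

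**Figure D3:**
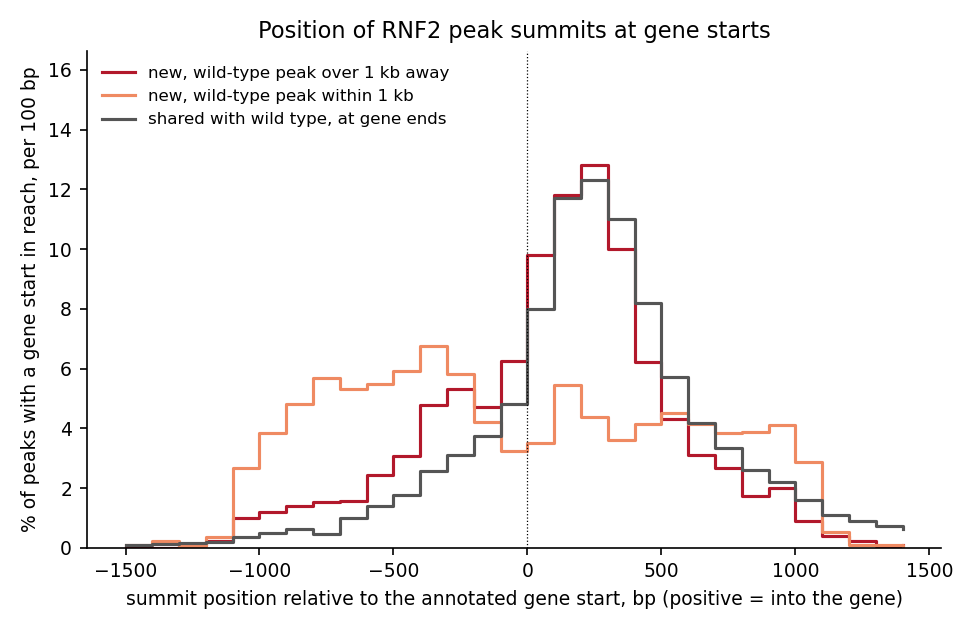
Position of peak summits relative to the annotated gene start (x axis, bp, positive into the gene) as a percentage of the peaks with a start in reach, per 100 bp (y axis). New peaks over 1 kb from a wild-type peak (median 152 bp) and shared gene-end peaks (268 bp) are highest just inside the gene, while new peaks within 1 kb of a wild-type peak spread on both sides of it.

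New peaks were spread over many genes. Of the 4720 genes, 3422 had 1 new peak, 1012 had 2 and 286 had 3 or more, up to 6, and 871 peaks touched at least 2 genes. Among genes with a new peak at both ends, those with the highest lower value were Plekhf1, Pigyl, Fkbpl, Sat2 and Arl4d. Plekhf1, a regulator of lysosomes, had a fold enrichment of 7.42 at its end, which the first BAP1 knockout library listed at 2.40, and of 6.51 at its start. By chromosome, there were 18.1 (chromosome 6) to 32.5 (chromosome 17) new peaks per 100 genes on the autosomes, 10.2 on X and 0 on Y.

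Genes of several metabolic and cellular pathways held new peaks more often than all genes. Hox genes and developmental regulators held few, but all of them held wild-type peaks, and the rule leaves out any peak that overlaps one. The background is 21.7% of all protein-coding genes and 31.8% of the 8466 genes whose promoter is CpG-rich (a ratio of observed to expected CG of at least 0.6). Of 38 gene lists, 3 had an interval wholly above the CpG-rich background, with no test made. They were cholesterol synthesis with 15 of 24 genes (62.5%, 42.7 to 78.8), autophagy with 16 of 32 (50.0%, 33.6 to 66.4) and respiratory complex I with 23 of 49 (46.9%, 33.7 to 60.6). With the second wild-type library left out the 3 counts were 19, 27 and 30, while 10568 of all 21779 genes held a new peak. With the second BAP1 knockout library left out they were 0, 0 and 1, while 79 of all genes held one. Over 1000 bp from any wild-type peak, the counts were 8, 12 and 18, or 33.3%, 37.5% and 36.7%, where the background is 11.1% of all genes and 15.5% of those with a CpG-rich promoter. Several other lists also lay above both of these backgrounds, as given below.

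Few of these peaks were strong. In the cholesterol list Tm7sf2, a sterol reductase, led with a fold enrichment of 3.97, 73 bp from a wild-type peak and shared with Znhit2. The new peak lay at the end of Tm7sf2, and the start it touched was that of Znhit2. Sqle, which makes squalene epoxide, had 3.33. None of the 15 was in the first BAP1 knockout list, and at −log10 q of at least 5 the count was 7 of 24, and at 10 it was 0. Over all 21779 genes, 2689 held a new peak at a threshold of 5 and 744 at 10. In complex I, Ndufb8 had 5.56 and Ndufa5 4.87, and 16 genes had one at −log10 q of at least 5. Autophagy had 12 at that threshold, led by Atg9b (6.06) and Atg14 (5.91), which act in forming the autophagosome. The peak of Atg9b lay at the end of the gene and also at Nos3, and that of Atg14 lay at its start.

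Other groups of basic cell machinery lay near the CpG-rich background when all new peaks were counted. With only new peaks over 1000 bp from a wild-type peak, several lay above its 15.5%. These were mitochondrial ribosomal proteins (29.5%), centrosome and cilium (28.3%), Mediator (26.7%), proteasome (21.6%), cytosolic ribosomal proteins (21.4%) and Zfp genes (19.9%). Histones (13.7%) and solute carriers (10.7%) did not. New peaks were at 31 of 78 mitochondrial ribosomal protein genes (39.7%, 29.6 to 50.8), 12 of 30 Mediator subunits (40.0%, 24.6 to 57.7), 23 of 60 centrosome and cilium genes (38.3%, 27.1 to 51.0), 17 of 51 proteasome subunits (33.3%) and 25 of 84 cytosolic ribosomal protein genes (29.8%). Zfp zinc finger genes had 116 of 397 (29.2%, 25.0 to 33.9). Solute carriers had 79 of 375 (21.1%), no more than all genes. Histone genes had 26 of 102 (25.5%), among them H1f4 with H2bc6 under 1 peak of 4.28. Without the second wild-type library these counts were 52, 19, 48, 29, 35, 227, 216 and 43, in the same order, and without the second BAP1 knockout library none was above 2. Over all 21779 genes the counts in these settings were 10568 and 79.

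Hox genes, developmental regulators and olfactory receptors had few new peaks. Every one of the 39 Hox genes and 40 developmental regulators held a wild-type peak, and new peaks lay at 0 of 39 (Wilson upper bound 8.97%) and 2 of 40 (5.00%), Bmp4 (3.56) and Gata2 (2.73), each within 300 bp of a wild-type peak. The rule leaves out peaks that overlap a wild-type one, and how far this set the low counts of these 2 lists was not tested. Olfactory receptors, which mostly lack CpG islands, had 5 of 1109 (0.451%, 0.193 to 1.05) and also few wild-type peaks (8 genes). The 12 genes of BAP1 and its partners had none (Wilson upper bound 24.2%), which includes the 21.7% of all genes. Without the second wild-type library the counts for these 4 lists were 2, 11, 13 and 4, and 10568 of all 21779 genes held a new peak. Pluripotency genes had 5 of 20 (25.0%, 11.2 to 46.9), with Lin28a (3.33), Tfcp2l1 (2.91) and Zfp42 (2.64) besides Sall4. Of 12 fibroblast markers, which could show feeder cells, Pdgfrb (3.81) and Thy1 (3.30) had one; occupancy does not measure expression.

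**Figure D4:**
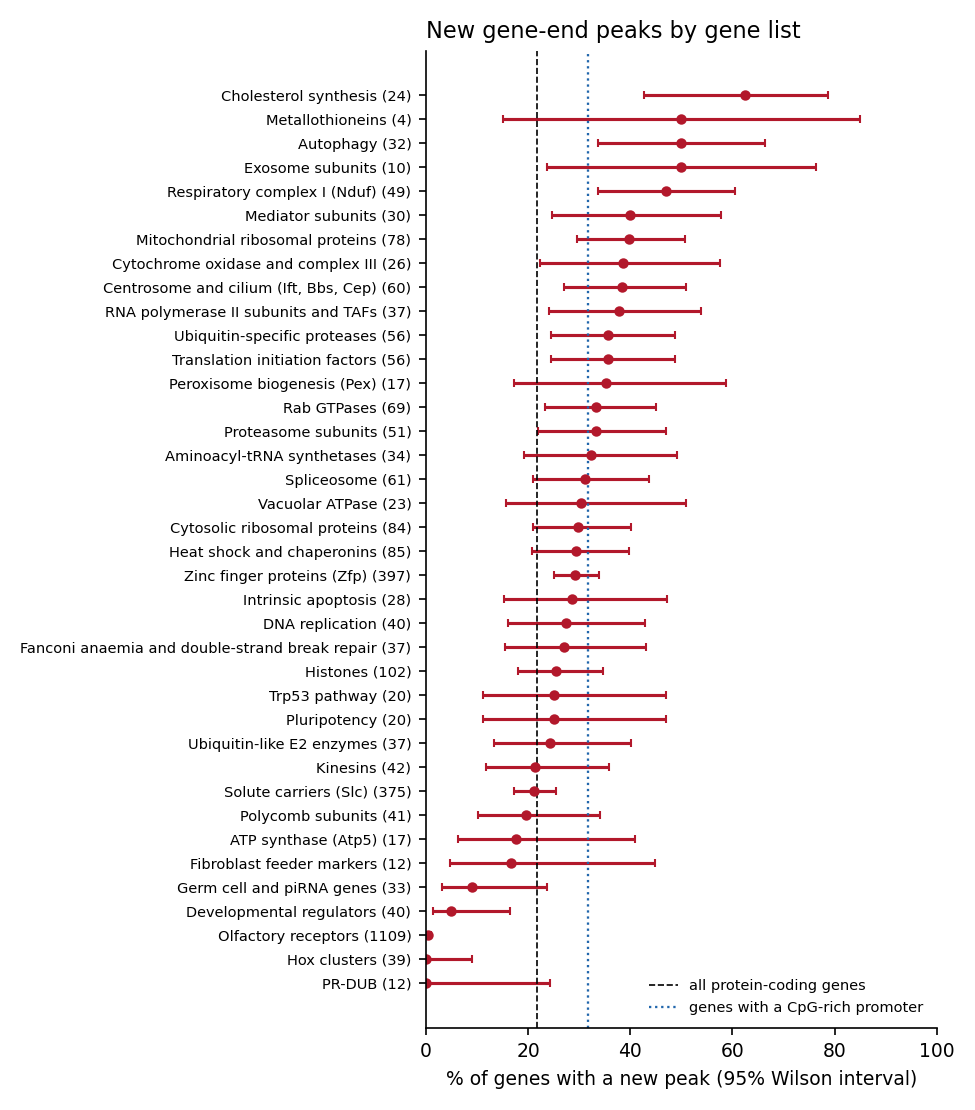
Share of the genes of each list with a new gene-end RNF2 peak (x axis, %; points, with 95% Wilson intervals) for 38 gene lists (y axis; the number of genes in brackets). The dashed line is all protein-coding genes (21.7%) and the dotted line genes with a CpG-rich promoter (31.8%); cholesterol synthesis, autophagy and respiratory complex I lie wholly to the right of both.

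New peaks at Polycomb genes, of repressive complexes 1 and 2, were weak. Of 41 Polycomb subunit genes 8 held one (19.5%, 10.2 to 34.0), and 36 held a wild-type peak. They were Cbx6 (3.78), Lcor (3.09), Phf1 (3.06), Ezh1 (2.97), Pcgf6 (2.78), Ezhip (2.61), Aebp2 (2.38) and Fbrs (2.31). Only Phf1, a partner of Polycomb repressive complex 2, and Fbrs, a subunit of a variant of complex 1, lay over 1000 bp from a wild-type peak.

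Of 28 genes of intrinsic apoptosis, the death pathway run by mitochondria, 8 held a new peak (28.6%, 15.3 to 47.1). Casp9, the initiator caspase, had the highest fold enrichment (5.79), 2613 bp from a wild-type peak. Bcl2l2, a survival factor of the Bcl-2 family, had 5.07, 5125 bp away. Among the others, Bcl2l10 had 3.11, Bcl2l13 3.09, Bad 2.72, Bcl2l12 2.29 and Bbc3 2.12. Neither list had a member in the first BAP1 knockout list or under a BAP1 peak among these, and both shares include the background of all genes in their intervals. Without the second wild-type library the Polycomb and apoptosis counts were 26 and 16, and without the second BAP1 knockout library both were 0. Over all 21779 genes the counts in these settings were 10568 and 79.

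Promoters under the new peaks were CpG-rich, as under shared ones. Of 17492 promoters with sequence, 1410 lay at least in part under a new peak and 7278 under a shared one, with 175 under both. CpG-rich were 73.9% (71.5 to 76.1) of those under new peaks, 76.1% (75.2 to 77.1) of those under shared peaks, 48.4% of all and 20.6% (19.8 to 21.5) of the 8627 under no RNF2 peak of any list. The median GC content was 59.7% under new peaks, 64.0% under shared ones and 56.3% in all. The TATA box was in 6.74% (5.54 to 8.17), 6.18% (5.65 to 6.76) and 13.3%.

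The ETS core was more frequent under new peaks than under shared ones, and among CpG-rich promoters it was about as frequent under new peaks as under no RNF2 peak. It was in 38.4% (35.9 to 40.9) of promoters under new peaks, 25.5% (24.5 to 26.5) of those under shared peaks and 21.5% of all. Among CpG-rich promoters it was in 44.0% (41.1 to 47.1) under new peaks, 29.1% (27.9 to 30.3) under shared peaks and 45.2% (42.9 to 47.5) under no RNF2 peak. The Sp1 box ran the other way, with 70.9% (68.1 to 73.6), 77.7% (76.6 to 78.8) and 64.5% (62.2 to 66.6) in these CpG-rich sets. The NRF1 motif was in 21.9% (19.5 to 24.5), 17.4% (16.4 to 18.4) and 14.7% (13.2 to 16.5). In all 17492 promoters the Sp1 box was in 46.3% and NRF1 in 9.02%.

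Promoters that themselves lay under a BAP1 peak of C91A cells held ETS cores at varied shares. It was 55.9% (43.3 to 67.8) of the 59 that also lay under a new RNF2 peak, 37.7% (32.0 to 43.8) of the 257 under a shared RNF2 peak, 68.8% (56.6 to 78.8) of the 64 under no RNF2 peak, and 45.5% (40.6 to 50.5) of all 389. The intervals of the first and second of these meet. Of the 5 printed promoters with BAP1, the mitochondrial ones chosen after the values had been seen, Snx29, Mrps17, Mrps18a and Ndufaf5 held an ETS core. That of Mrps17 lay outside its new peak. Mrpl40 held none, but its new peak covered only the first bases printed. YY1 matches were in 16.9% (9.48 to 28.5) of the 59, 8.17% (5.41 to 12.2) of the 257 and 21.9% (13.5 to 33.4) of the 64, against 6.35% of all promoters. Of the 19 promoters under a new peak found in both BAP1 knockout lists, 42.1% (23.1 to 63.7) held an ETS core.

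**Figure D5:**
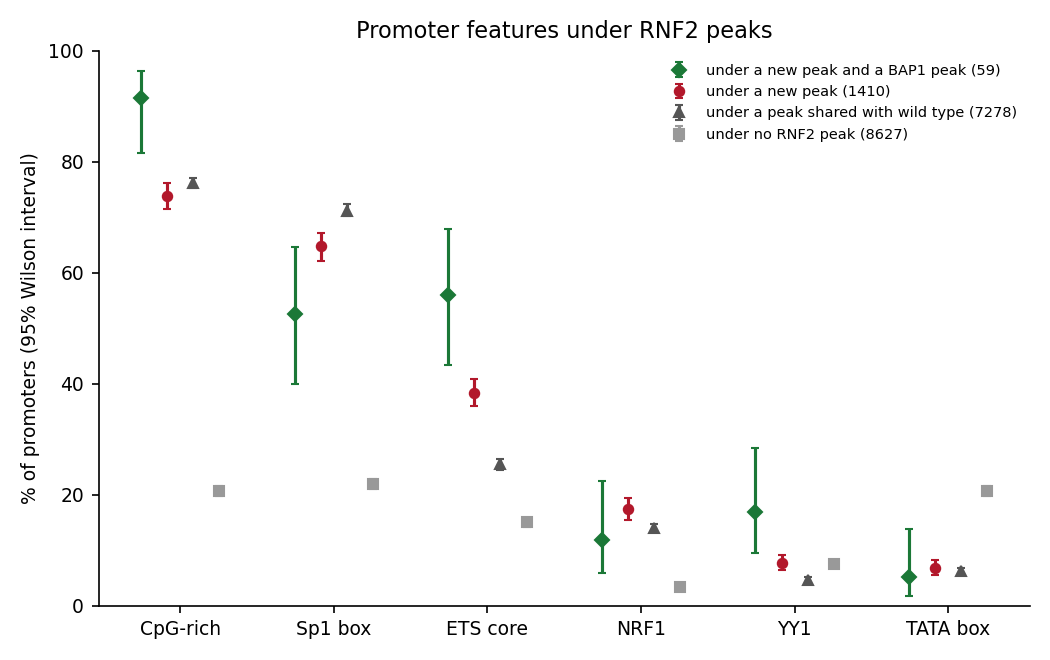
Share of promoters (y axis, %) that are CpG-rich or hold a motif (x axis), for promoters under both a new peak and a BAP1 peak of C91A cells (59), under any new peak (1410), under a peak shared with wild type (7278) and under no RNF2 peak (8627); bars are 95% Wilson intervals. The ETS core is in 55.9%, 38.4%, 25.5% and 15.0% of these sets, while CpG-rich shares are 91.5%, 73.9%, 76.1% and 20.6%.

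Some of the remaining motifs also differed between new and shared peaks. The ZNF143 motif was in 6.24% (5.09 to 7.63) of promoters under new peaks, 2.76% (2.41 to 3.16) of those under shared peaks and 3.82% of all. The cyclic AMP response element was in 4.04%, 2.72% and 2.33%, the E-box in 8.79%, 11.4% and 7.91%, the CCAAT box in 41.1% (38.6 to 43.7), 35.0% (33.9 to 36.1) and 39.2%, and the forkhead core in 2.84%, 2.02% and 2.93%. The metal response element core, seen 3 times at Mt1, is short and was in 57.0% (54.4 to 59.6), 66.8% (65.7 to 67.8) and 53.0%. In CpG-rich promoters under new peaks, under shared peaks and under no RNF2 peak, the ZNF143 motif was in 6.81%, 2.89% and 6.58%. In the same order, the cyclic AMP response element was in 4.80%, 3.12% and 5.79% and the CCAAT box in 41.1%, 34.5% and 47.8%. The E-box was in 9.21%, 12.5% and 9.22%, the forkhead core in 2.78%, 2.0% and 2.31%, and the metal response element core in 59.6%, 69.3% and 52.0%.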

How the data were processed

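Reads had been mapped with GSNAP to GRCm38, the mm10 build, per the submitters' processing notes, and no aligner version was given in the sources used here. The authors called peaks with MACS2 in every ChIP library on its own, with its input as control and q-values up to 0.05, per the file headers. Version 2.1.1.20160309 and a fixed read extension of 100 bp served for the second BAP1 knockout and wild-type RNF2 libraries and for the RNF2 knockout; version 2.1.0.20150420 and estimated extensions of 323 bp (BAP1 knockout) and 297 bp (wild type) served for the first ones. The deposited lists give, per peak, the pileup signal at the summit, −log10 of the p-value and q-value, and the fold enrichment, a ratio over the local background. These values are the authors' own, and fold enrichment was compared only within a list.

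From these lists, overlaps of at least 1 bp were counted with Python 3.11.15, numpy 2.4.6, pandas 2.3.3 and scipy 1.17.1, and the rule was tested on simulated data. Tags after the authors' filtering numbered 32.5 M to 415 M per ChIP library. Genes were the 21779 protein-coding entries of a RefSeq table of GRCm38.p6, less 108 taken to lie on scaffolds. Strand and start came from a promoter table that covers 17492 of these genes (80.3%) and none on chromosome 18. A peak has 1 value and no replicates, so shares carry Wilson intervals and no p-value was computed. Nothing in the labels ties the libraries of a genotype to separate cultures. FLAG ChIP was not analysed here.

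Named genes are those of the 12 strongest members, up to 12 members in both BAP1 knockout lists, 8 with the highest BAP1 fold enrichment, up to 4 per gene list, any of the Polycomb, BAP1 partner and apoptosis lists, the 5 widest, 5 with peaks at both ends, and the nearest to each threshold; the BAP1 genes outside these were chosen after their values were seen. A few genes that this rule names are not reported here. The members and lists were chosen with earlier results of these data known. Alternatives changed the window, the overlap, the threshold and the libraries.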

Additional observations from a re-analysis of the deposited data

How the results depend on the processing

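No paired analysis was possible because the results are counts and shares of peaks that come from no test. The number of new gene-end peaks, 5501, was 2717 at −log10 q of at least 5, 653 at 10, 2931 with no wild-type peak within 1000 bp and 3178 with the list cut to the length of the second wild-type list; each of these takes fewer peaks by construction. Leaving out 1 library at a time gave 70 to 13981. The share in the first BAP1 knockout list, 0.782%, was 1.51% and 5.82% at the 2 stricter thresholds and 1.29% with the shorter list, and 0.781% to 18.6% with a library left out. The share with BAP1, 1.40%, was 1.92% and 1.05% with windows of 500 and 2000 bp, 1.94% with no wild-type peak within 1000 bp, 1.11% with all genes of the table, 1.40% to 4.29% with a library left out, and 0.454% with BAP1 peaks of −log10 q of at least 5, a setting chosen after seeing the data. The share at gene starts, 88.7%, was 89.9%, 86.9%, 86.3% and 85.2% in the first 4 of these settings and 88.7% to 91.8% with a library left out. Where the number of peaks was not changed by construction, the cause was not tested. Of 456 recomputed list counts, 188 moved by over 1.5 times, most of them at the stricter thresholds or without a second library. The first libraries differ from the second in depth, caller version and read extension together, so what each of these limits cannot be told apart, and a peak missing from a list is not an absence of binding.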

Other observations

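Of the 7946 peaks of the first BAP1 knockout library, 190 (2.39%) overlapped no wild-type peak. In the second BAP1 knockout library, 2273 new gene-end peaks (41.3%) had a local background equal, within 1%, to the genome-wide background pileup of 7.42, against 35.3% of gene-end peaks shared with wild type, so that many fold enrichments repeat: 227 new peaks had the value 3.09.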
